A study of Mus musculus with 9 samples.

Results

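The genes examined here were 10 subunits of intraflagellar transport complex B (IFT-B), taken by name from the 23074 genes of a mouse testis RNA-seq table. Ift74, Ift81, Ift88, Ift52, Ift46 and Ift27 belong to the core of the complex, and Ift172, Ift80, Ift57 and Ift20 to its peripheral part. All 10 matched a row, and all 10 passed the filter on low counts. RNA came from the decapsulated testes of 9 mice aged 29 to 30 postnatal days, 5 of them wild type and 4 Rfx2-/-, on a mixed background of C57BL/6, 129/Sv and FVB/N. The labels give no treatment, and each library was made from 1 mouse. The Rfx2 allele lacks exon 7, which encodes most of the DNA binding domain, and the exon was excised in the whole animal with a Cre driven by the actin promoter, so that no cell type keeps that exon. The comparison asks which IFT-B mRNAs change when RFX2, a transcription factor of spermatocytes and early round spermatids, is missing.

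IFT is the movement of large protein trains along the microtubules of a cilium or flagellum. IFT-B trains carry tubulin and other cargo outwards with kinesin-2, and IFT-A takes part in the return by dynein-2. In the testis the flagellum of the sperm is assembled by round and elongating spermatids, and mouse mutants of several IFT-B genes make few or malformed sperm. RFX factors bind the X-box, an inverted repeat found in the promoters of many ciliary genes.

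The deepest library, Rfx2-/- replicate 1, held 28800855 counts, and the other 8 held between 13574764 and 15193330. Rfx2 itself had 470.5 to 623.2 CPM (reads of a gene relative to the library's total after TMM scaling) in the wild type libraries, and 199.0, 61.46, 151.0 and 172.6 CPM in Rfx2-/- replicates 1 to 4. The fitted log2 change of -1.91 (SE 0.28) passed the test (edgeR adjusted p 7.81e-04), and Rfx2 matched the label of every library. Rfx2-/- replicate 2 stood apart from the others. Relative to the other knockout libraries, its genes with under 2 kb of exons had a median log2 deviation of 0.61 and its genes over 8 kb one of -0.93, whereas the same medians lay between -0.12 and 0.11 in the wild type libraries. Rfx2-/- replicates 1 and 3, each set against the other knockout libraries, deviated the opposite way. Their medians were -0.37 and -0.20 for the short genes and 0.53 and 0.38 for the long genes. The libraries they were set against include replicate 2, so part of this opposite deviation follows from the comparison itself. Results for which replicate 2 changes a call, a direction or the size are given without it as well.

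The promoters of the IFT-B genes were examined for the X-box, because the factor removed is one that binds it. RefSeq windows (GRCm38.p6, from 250 bases before to 50 bases after the gene start) matched 8 of the 10 genes, all but Ift81 and Ift80. The motif searched was GTTGCCNNGGCAAC, which reads the same on both strands, and a window was described by its fewest mismatches among the 12 fixed letters. The closest match was in Ift57, with 2 mismatches, a value reached by 2.85% of all 32851 windows. Ift172 had 3 mismatches, reached by 14.1% of windows. Ift52 and Ift46 had 4, reached by 60.4%, and Ift74, Ift88, Ift27 and Ift20 had 5, reached by 98.0%. The windows of Ift57 (chr16:49699044-49699343, plus strand) and Ift172 (chr5:31291065-31291364, minus strand) are printed below, 5′ to 3′, because they hold the closest matches, which are in capitals.
Ift57: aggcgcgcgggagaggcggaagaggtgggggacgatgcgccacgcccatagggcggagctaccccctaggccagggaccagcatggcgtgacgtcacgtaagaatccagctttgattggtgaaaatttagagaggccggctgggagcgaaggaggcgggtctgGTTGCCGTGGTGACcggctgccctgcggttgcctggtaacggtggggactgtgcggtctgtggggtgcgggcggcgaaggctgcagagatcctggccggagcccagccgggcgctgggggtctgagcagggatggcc
Ift172: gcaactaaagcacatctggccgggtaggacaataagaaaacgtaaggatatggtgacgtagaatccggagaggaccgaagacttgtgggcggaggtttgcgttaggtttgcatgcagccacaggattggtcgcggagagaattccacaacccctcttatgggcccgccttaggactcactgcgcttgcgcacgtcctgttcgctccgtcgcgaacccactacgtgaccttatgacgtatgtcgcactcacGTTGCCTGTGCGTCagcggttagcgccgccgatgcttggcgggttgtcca
The Ift57 match ended 74 bases before the RefSeq gene start and the Ift172 match began at that start. The GENCODE start of Ift57 lies 61 bases further upstream, that of Ift46 5101 bases upstream, and those of the other 6 within 26 bases of the RefSeq start.

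The spacing between the arms of the repeat changed which genes came closest. With 1 free base, a second stretch of the Ift57 window, 60 to 48 bases before the RefSeq start and inside the gene as GENCODE gives it, had 1 mismatch, reached by 0.377% of windows. Ift74 and Ift27 then each had 3 mismatches in a stretch that spans the gene start, reached by 12.9% of windows, as did Ift88 and Ift52 elsewhere in their windows. With 3 free bases, Ift88 had 2 mismatches, reached by 1.20% of windows. The matches of Ift57, Ift74 and Ift27 with 1 free base and of Ift88 with 3 are printed with 8 bases on either side, the match in capitals, to show how the arms differ. The matched bases are chr16:49699234-49699246 (plus strand) in Ift57, chr4:94614486-94614498 (plus strand) in Ift74, chr15:78174078-78174090 (minus strand) in Ift27 and chr14:57424083-57424097 (plus strand) in Ift88.
Ift57: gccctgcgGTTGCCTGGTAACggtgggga
Ift74: cggtgaccGTTGCTAGGATACgcggcgtc
Ift27: tgatgatgGTTGCCAGGAGCCtgtttggc
Ift88: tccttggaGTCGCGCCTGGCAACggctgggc
In Ift57 and Ift27 the first arm was complete. A match of this kind describes the letters of the window and does not show a bound site. By the study's chromatin immunoprecipitation at postnatal day 21, RFX2 had a promoter peak at 6 of the 10 genes, namely Ift74, Ift81, Ift52, Ift27, Ift172 and Ift57, whereas 6.10% of the genes tested are on that list. Ift88, Ift46, Ift80 and Ift20 are not on it. The study placed peaks relative to the start of its own gene models, in a wider window than the one searched here. For Ift46, whose RefSeq and GENCODE starts lie 5101 bases apart, the list and the searched window may concern different promoters. A high share was not particular to these 10. Of the related lists described below, it held 7 of 8 further IFT-B genes and 8 of 9 genes of the BBSome list. It also held 3 of 6 IFT-A genes and 3 of 8 motor genes.

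Few of the IFT-B genes passed the edgeR test, and those that did went in both directions. The core pair Ift74 and Ift81 had 191% and 194% of the wild type mRNA level in Rfx2-/- testes, Ift27 had 52.5%, and the other 7 did not pass the test. At an adjusted p of 0.05 (edgeR) 2 of the 10 were higher, against 3.48% of the 15613 genes tested, and 1 was lower, against 7.31%. The lower count is thus near the share over all genes. With the stricter rule of an adjusted p of 0.01 and a change over 2-fold, 0 were higher and 0 lower, against 0.826% and 3.68% of all genes, since none of the 10 had a fitted change beyond 2-fold. At an unadjusted p of 0.05 in edgeR, 2 were higher, against 13.9% of all genes, and 3 lower, against 13.7%, and DESeq2 and limma voom also made no call by the strict rule. Scaling by total counts, under which 1178 genes were called higher and 959 lower in place of 544 and 1142, raised the median log2 fold change of all genes from 0.03 to 0.16 and put Ift74 and Ift81 past the strict rule, at 1.08 and 1.09. The median over the 10 was -0.0008, with 5 above 0 and 5 below. Without Rfx2-/- replicate 2 only Ift74, Ift81 and Ift80 were above 0.

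**Figure D1:**
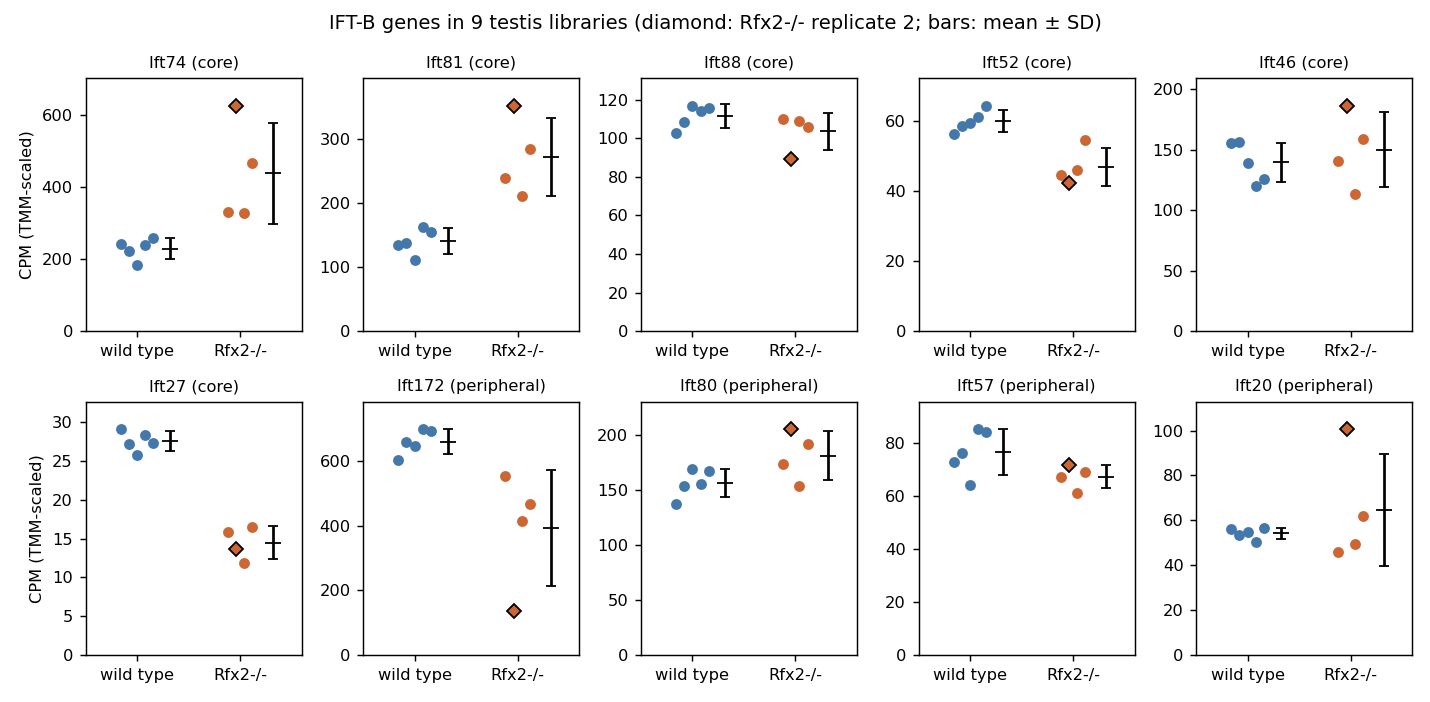
TMM-scaled CPM (vertical axes, each from 0) of the 10 IFT-B genes in the 5 wild type and 4 Rfx2-/- libraries. Points are libraries, the diamond is Rfx2-/- replicate 2, and bars give the mean ± SD. The genotypes do not overlap for Ift74 and Ift81 (higher in Rfx2-/-) or for Ift52, Ift27 and Ift172 (lower), and replicate 2 lies far from the other knockout libraries in Ift172 and Ift20.

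Ift74 and Ift81 form the heterodimer in the IFT-B core that binds tubulin. Ift74 (ENSMUSG00000028576, GRCm38 chr4:94614491-94693229, plus strand) had 242.7, 222.5, 183.7, 238.0 and 258.3 CPM in wild type replicates 1 to 5, and 331.6, 625.9, 328.4 and 466.1 CPM in Rfx2-/- replicates 1 to 4. Every knockout library was above every wild type library, and replicate 2 was the highest. The mean went from 229.0 ± 28.4 CPM (SD, n = 5) to 438.0 ± 140.8 CPM (SD, n = 4), which is a fitted log2 change of 0.94 (SE 0.20) at an edgeR adjusted p of 0.0103. Without replicate 2 it was 0.71 (SE 0.14, edgeR adjusted p 0.00389).

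Ift81 (ENSMUSG00000029469, chr5:122550204-122614518, minus strand) had 134.4, 138.0, 111.1, 163.1 and 154.0 CPM in the wild type and 238.7, 351.8, 211.4 and 283.7 CPM in the Rfx2-/- libraries. Again no library of one genotype reached the other, and the order of the knockout libraries was 2, 4, 1 and 3 for both genes. Its mean was 140.1 ± 20.0 CPM in wild type and, in the knockout, 271.4 ± 61.3 CPM. The fitted log2 change was 0.95 (SE 0.18; edgeR adjusted p 0.00362), and 0.80 (SE 0.14; edgeR adjusted p 0.00108) without replicate 2. Both genes were called higher at an adjusted p of 0.05 in each of the 16 alternative analyses, with log2 fold changes of 0.71 to 1.09 for Ift74 and 0.80 to 1.09 for Ift81.

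The pair kept its proportion. Per kb of exon, the ratio of Ift74 to Ift81 counts was 2.23, 2, 2.05, 1.81 and 2.08 in the wild type and 1.72, 2.20, 1.92 and 2.03 in the Rfx2-/- libraries, so that the ranges overlapped almost wholly. The log2 CPM of the genes had a Pearson r of 0.975 over the 9 libraries, which include the genotype difference itself, and each was the other's closest member. Among all genes tested, however, Ift81 ranked only 19 in correlation with Ift74, and Ift74 ranked 9 with Ift81. The length used was that of merged exons in GENCODE M21, and testis transcripts shorter than this would change the level of the ratio in both genotypes.

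Ift27, a small GTPase of the Rab family that joins the core together with Hspb11 (IFT25), moved the other way. It (ENSMUSG00000016637, chr15:78159463-78174107, minus strand) had 29.11, 27.23, 25.77, 28.36 and 27.34 CPM in wild type and 15.79, 13.69, 11.85 and 16.54 CPM in Rfx2-/- testes. The wild type libraries lay within a narrow range well above all knockout libraries. The mean fell from 27.56 ± 1.26 to 14.47 ± 2.12 CPM, or 52.5% of wild type, and the fitted log2 change was -0.93 (SE 0.14; edgeR adjusted p 8.22e-04). Over the alternatives it ranged from -1.06 to -0.80, always with an adjusted p at or under 0.00402 in the tool used.

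The mRNA of its partner did not follow. Hspb11 had 10.96 to 14.15 CPM in wild type and 9.489, 19.91, 9.26 and 12.88 CPM in Rfx2-/- libraries, and a fitted log2 change of 0.09 (SE 0.22; edgeR adjusted p 0.813). The ratio of Ift27 to Hspb11 per kb was 1.66, 1.48, 1.54, 1.32 and 1.56 in wild type, and 1.09, 0.452, 0.840 and 0.843 in Rfx2-/- testes. All 4 knockout ratios were below the wild type range, with replicate 2, where the short Hspb11 was highest, at the bottom.

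**Figure D2:**
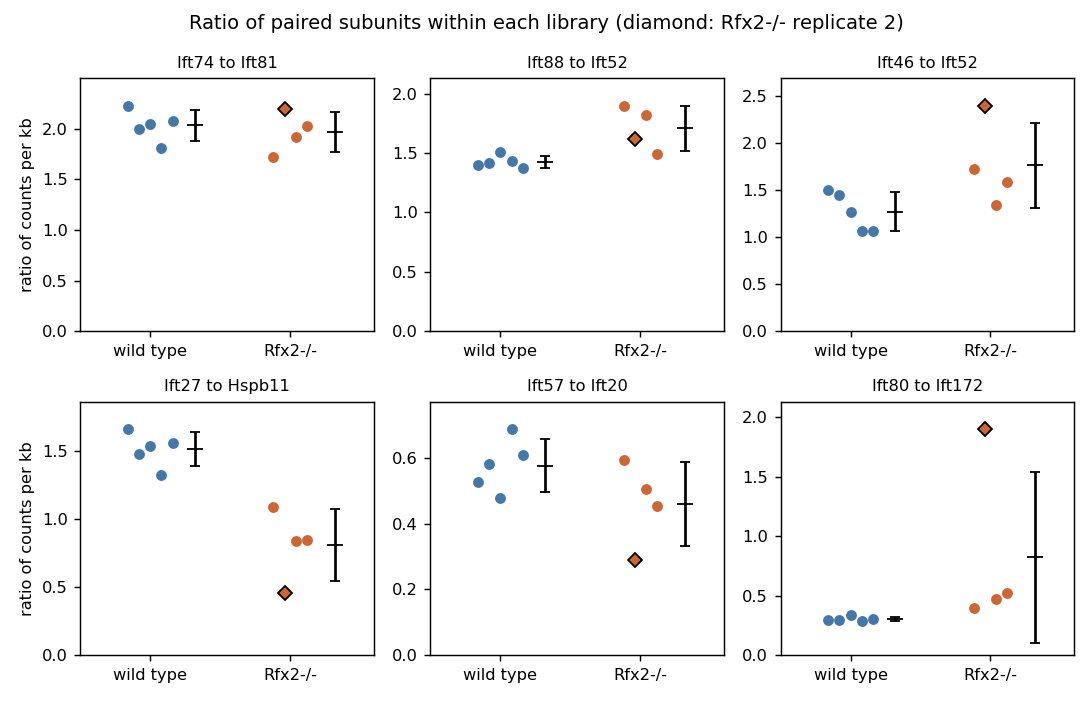
Ratio of counts per kb of exon (vertical axes, from 0) for 6 pairs of IFT-B subunits in each library. Points are libraries, the diamond is Rfx2-/- replicate 2, bars give the mean ± SD. Ift74 to Ift81 spans 1.81 to 2.23 in wild type and 1.72 to 2.20 in Rfx2-/-, whereas Ift27 to Hspb11 is lower and Ift80 to Ift172 higher in all knockout libraries.

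None of the remaining core subunits passed the edgeR test with all 9 libraries. Ift52 (ENSMUSG00000017858, chr2:163017354-163046141, plus strand), which holds core subunits together, had 56.45, 58.64, 59.45, 61.30 and 64.50 CPM in wild type and 44.63, 42.29, 46.17 and 54.64 CPM in Rfx2-/- testes. The genotypes did not overlap, although the highest knockout library came within 2 CPM of the lowest wild type library. The log2 fold change was -0.36 (95% interval -0.62 to -0.09) and did not pass (edgeR adjusted p 0.0866), but DESeq2 gave -0.36 with an adjusted p of 0.0274.

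Ift88 (ENSMUSG00000040040, chr14:57424062-57517936, plus strand), whose loss shortens cilia and flagella, had 102.6 to 117.0 CPM in wild type and 110.2, 89.38, 109.2 and 105.9 CPM in Rfx2-/- testes. Only replicate 2 left the wild type range, and the log2 fold change was -0.11 (95% interval -0.37 to 0.16, edgeR adjusted p 0.603). Ift46 (ENSMUSG00000002031, chr9:44767908-44793447, plus strand), a subunit that links the core to dynein arm cargo, had 120.2 to 156.4 CPM in wild type and 140.6, 186.4, 113.0 and 159.1 CPM in knockout libraries. These spread to both sides of the wild type range, with a log2 fold change of 0.10 (95% interval -0.25 to 0.46, edgeR adjusted p 0.709). In Ift88, 67 exon bases overlap an antisense gene, and use of strand in the counting was not stated.

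Among the peripheral genes, Ift172 (ENSMUSG00000038564, chr5:31253277-31291116, minus strand), the largest subunit, which acts where trains turn at the ciliary tip, had 601.8, 659.1, 645.4, 698.5 and 692.9 CPM in wild type and 555.2, 137.1, 414.7 and 465.9 CPM in Rfx2-/- testes. All knockout libraries were lower, but replicate 2 was far below the others while replicate 1 came close to the wild type range. The mean was 659.5 ± 39.3 against 393.2 ± 180.3 CPM, and the log2 fold change of -0.75 (SE 0.31) did not pass (edgeR adjusted p 0.139). Without replicate 2 the change was smaller and its error less, and the gene was called lower at -0.46 (SE 0.12, edgeR adjusted p 0.0198). Its exons add up to 5.41 kb, and replicate 2 was low in long genes. The part of that in the value was not tested, but with a length trend removed from each library the log2 fold change was -0.70 (edgeR adjusted p 0.0694).

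Ift80 (ENSMUSG00000027778, chr3:68892499-69004570, minus strand), a second peripheral subunit with WD40 repeats, had 137.4 to 169.3 CPM in wild type and 173.4, 205.0, 153.6 and 191.6 CPM in Rfx2-/- libraries. Only replicate 3 fell into the wild type range, and the log2 fold change of 0.21 (95% interval -0.08 to 0.50) did not pass (edgeR adjusted p 0.328). The ratio of Ift80 to Ift172 was 0.283 to 0.333 in wild type and 0.397, 1.90, 0.471 and 0.523 in knockout libraries, without overlap.

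Ift57 (ENSMUSG00000032965, chr16:49699233-49765126, plus strand), which holds the closest X-box match, had 64.30 to 85.39 CPM in wild type and 67.32, 71.75, 61.35 and 69.28 CPM in Rfx2-/- testes. The ranges overlapped, and the log2 fold change was -0.19 (95% interval -0.47 to 0.10, edgeR adjusted p 0.371). It shares 225 exon bases with an antisense gene, and 4.62% of its 50-base stretches occur in other genes, against at most 0.658% in the other members. Ift20 (ENSMUSG00000001105, chr11:78536361-78541737, plus strand), the subunit also found at the Golgi, had 50.47 to 56.40 CPM in wild type and 46.02, 100.6, 49.30 and 61.96 CPM in knockout libraries. Its log2 fold change of 0.25 (95% interval -0.20 to 0.70, edgeR adjusted p 0.457) was -0.05 without replicate 2.

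**Figure D3:**
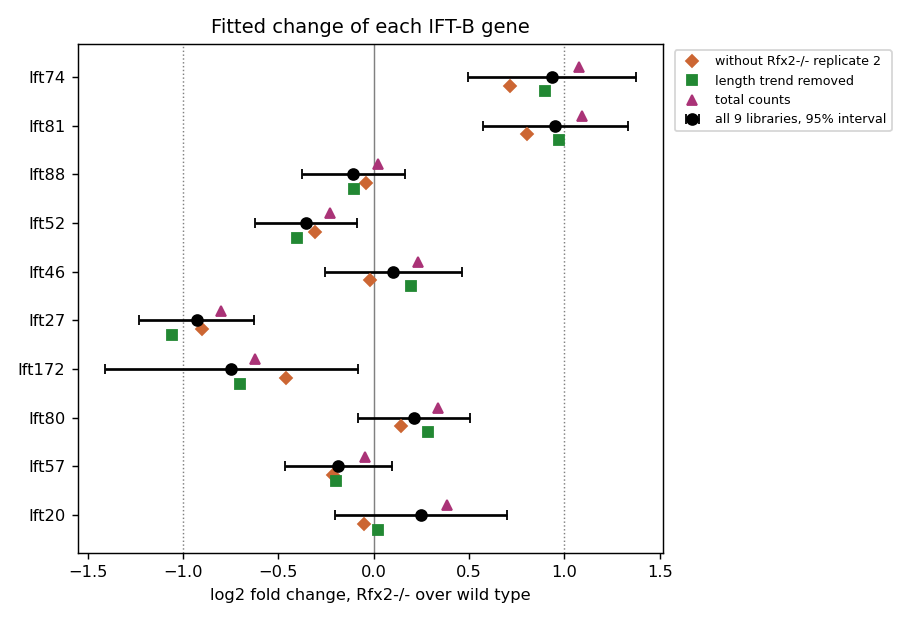
Log2 fold change (Rfx2-/- over wild type, horizontal axis) of each IFT-B gene with its 95% interval, and the value under 3 other analyses. Dotted lines mark a 2-fold change. Ift74 and Ift81 lie to the right of 0 and Ift27 to the left in all 4, while Ift20 and Ift46 cross 0 without replicate 2 and Ift88 crosses 0 with total counts.

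By level per kb of exon, Ift172 was highest in wild type testes at 121.9 ± 7.25 CPM per kb, followed by Ift74 at 87.36 ± 10.8. The other 8 lay between 46.63 (Ift20) and 23.36 (Ift27) CPM per kb, in the order Ift20, Ift81, Ift80, Ift88, Ift46, Ift57, Ift52 and Ift27, and every neighbouring pair among these 8 overlapped between libraries. In Rfx2-/- testes Ift74 was first at 167.1 ± 53.7 CPM per kb, above Ift81 at 83.62 ± 18.9 and Ift172 at 72.66 ± 33.3, the latter 2 with overlapping ranges. Without replicate 2 that order turned, with 88.47 CPM per kb for Ift172 and 75.26 for Ift81. Ift27 stayed last at 12.26 ± 1.798 CPM per kb, apart from Ift52 at 19.79 ± 2.27. The summed level of the 10 genes was 1570 to 1746 CPM in wild type and 1499 to 1875 CPM in knockout libraries. Within that sum the 6 core genes gave 635.9 to 745.8 CPM in wild type and 820.0 to 1310 in Rfx2-/-, and the 4 peripheral genes 868.3 to 1000 and 514.5 to 841.9 CPM. Without replicate 2 the knockout ranges were 820.0 to 1086 CPM for the core and 678.9 to 841.9 CPM for the peripheral genes. Such sums are weighted to the genes with high levels. Ift172 alone gave 601.8 to 698.5 CPM in wild type and 137.1 to 555.2 CPM in Rfx2-/-. Among the core genes only Ift74 and Ift81 were called higher. By gene, the median log2 fold change was -0.0008 in the core list and 0.012 in the peripheral list. Without replicate 2 the peripheral values were -0.46 (Ift172), 0.15 (Ift80), -0.21 (Ift57) and -0.05 (Ift20).

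Counting libraries rather than fitted changes, 2 of the 10 were higher in all knockout than in all wild type libraries (Ift74 and Ift81), against 6.16% of genes tested, and 3 were lower (Ift52, Ift27 and Ift172), against 9.70%. With total counts in place of TMM only Ift27 stayed without overlap among the lower genes. All 5 are among the 6 of the 10 members on the list of genes with an RFX2 promoter peak, 2 in one direction and 3 in the other. Ift57, the other member on the list, overlapped between genotypes. The share of that list among all genes without overlap was not computed. In the related lists the 2 features did not always go together. Ttc30a2 was on the list and lower without overlap, but Ift140, Kif3b and Bbs2 were lower without overlap and not on it. Ift22 and Wdr19 were on it and overlapped.

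Of 31 other genes of the transport machinery, 6 passed the edgeR test at an adjusted p of 0.05, all of them lower. Of all genes tested, 7.31% were called lower and 3.48% higher. Of 8 further IFT-B genes 0 were called higher and 2 lower at an adjusted p of 0.05, with a median log2 fold change of -0.33. On the log2 scale Ttc30a2 fell by 0.96 (edgeR adjusted p 0.00115) and Ttc30a1 fell by 0.56 (edgeR adjusted p 0.0243). They are close copies of 1 subunit, and reads common to both were discarded, so their counts are uncertain. Without Rfx2-/- replicate 2, 3 of the 8 further IFT-B genes were called lower, against 9.77% of all genes. All 8 were then below 0, with a median of -0.36. Of 6 IFT-A genes 0 were called by edgeR in either direction, and all 6 were below 0, with a median of -0.48. Their summed level was 759.7 CPM in Rfx2-/- replicate 2 and 1540 to 1801 CPM in replicates 1, 3 and 4, and without replicate 2 the median was -0.26. At an unadjusted p of 0.05 edgeR had 2 of them lower and 0 higher, against 13.7% and 13.9% of all genes tested. DESeq2 called 1 lower, as did edgeR without Rfx2-/- replicate 1, without replicate 2 and with the length trend removed. These 4 alternatives called 7.53 to 9.77% of all genes lower. Of 8 motor genes, kinesin-2 and dynein-2 subunits, 0 were called by edgeR, all 8 were below 0 and the median was -0.43. Their sum was 1061 CPM in replicate 2 and 1541 to 1721 CPM in replicates 1, 3 and 4, and the median without replicate 2 was -0.30. Their unadjusted edgeR count was 3 lower and 0 higher, and the same 4 alternatives each called 1 lower. Scaling by total counts left 0 of the 8 motor genes at an unadjusted p of 0.05. The BBSome is a coat that trains carry for membrane proteins. The BBSome list of 9 genes holds its subunits and the small GTPase Arl6, which is not part of the coat. Of the 9, 4 were called lower (Bbs7, Bbs2, Ttc8 and Bbs9, with log2 fold changes of -0.98, -0.62, -0.72 and -0.57) and 0 higher. Without Rfx2-/- replicate 2, 5 of the 9 were called lower, against 9.77% of all genes, and the median was -0.45. With all 9 libraries and TMM factors edgeR called 0 genes of these 4 lists higher, as did DESeq2. Arl6 was higher at an unadjusted p of 0.05 in edgeR. However, 1 gene of the BBSome list was called higher with total counts, without Rfx2-/- replicate 1 and without replicate 3. Of all genes, 7.54%, 8.86% and 3.14% were called higher in these. No difference between the lists was tested. The BBSome count was 2 lower with total counts. Over the omitted libraries it was 1 to 5 lower, with 1 without Rfx2-/- replicate 3 or 4 and 2 without wild type replicate 3 or 4. The count of further IFT-B genes was then 1 to 3 lower. Of all genes, 6.14% were called lower with total counts and 5.44 to 9.77% over the omitted libraries.

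**Figure D4:**
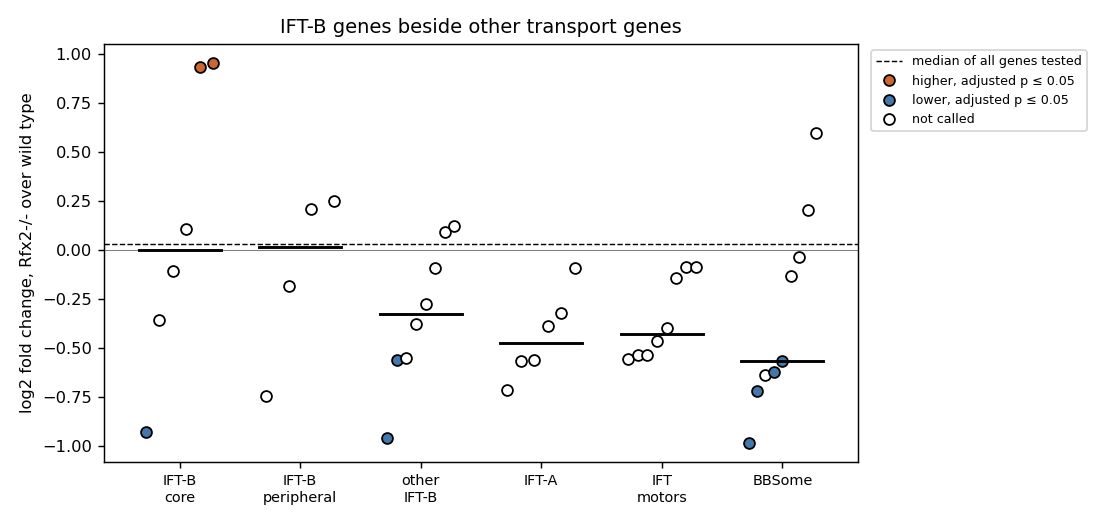
Log2 fold change (Rfx2-/- over wild type, vertical axis) of single genes in 6 lists of transport genes. Filled points passed an adjusted p of 0.05, bars are list medians, and the dashed line is the median of all genes tested. The medians are near 0 for the IFT-B core and peripheral lists and between -0.33 and -0.57 for the other 4. Without Rfx2-/- replicate 2, which is not drawn, those of the other 4 were -0.36, -0.26, -0.30 and -0.45.

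Elongating spermatid markers tended to be lower in Rfx2-/- testes, but the summed levels of elongating spermatid, spermatocyte and round spermatid markers each overlapped between genotypes. In whole testis, fewer cells of a type and less RNA per cell cannot be told apart. The summed level of 14 elongating spermatid markers was 13400 to 26050 CPM in wild type and 11170 to 14300 CPM in Rfx2-/- libraries, with all 14 below 0 in log2 fold change and 7 called lower. Wild type replicate 3 had the lowest wild type sum, and also the lowest Ift74 and Ift81. It was the lowest wild type library in the spermatocyte (6879 CPM) and round spermatid (1650 CPM) sums as well. The 10 spermatocyte markers summed to 6879 to 8361 CPM in wild type and to 7133, 10920, 7035 and 9007 CPM in Rfx2-/- replicates 1 to 4, in the same order of libraries as Ift74. Ldhc and Hspa2 made up 60.2 to 69.5% of that sum. The median log2 fold change of the 10 was 0.42, with 7 above 0 and 1 called higher (Sycp2, a protein of the synaptonemal complex, at 0.74). Replicate 2 weighed on some of these markers. Sycp3 had 114.0, 278.7, 118.5 and 143.4 CPM in Rfx2-/- replicates 1 to 4, whereas Hspa2 was lowest in replicate 2, at 1142 CPM. The median without replicate 2 was not computed. The 12 round spermatid markers summed to 1650 to 2409 and 1948 to 2841 CPM, with a median log2 fold change of 0.36, 9 above 0 and 1 called higher (Catsper4). The 4 markers of rete testis and efferent duct, the latter lined by ciliated cells, summed to 6.19 to 8.12 CPM in wild type and 6.50 to 11.7 CPM in knockout libraries, with the highest value in replicate 2. No marker of these lists was at 0 in all libraries. Median log2 fold changes of the somatic lists were 0.13 (Sertoli cell), 0.19 (Leydig cell), 0.13 (peritubular cell) and 0.38 (macrophage), and that of spermatogonia was 0.12.

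Whether Ift74 and Ift81 stayed apart from wild type relative to germ cell markers depended on the marker. Ift81 had 16.2 to 20.4 CPM per 1000 CPM of summed spermatocyte markers in wild type and 30.1 to 33.5 in Rfx2-/-, and Ift74 had 26.7 to 32.7 and 46.5 to 57.3. Relative to the round spermatid markers, Ift81 had 62.6 to 75.2 and 100 to 124, and Ift74 had 103 to 113 and 155 to 220. For these sums no ratio of one genotype reached the other. Against single markers, the ratios of both genes were higher without overlap for 5 of the 10 spermatocyte markers. They overlapped for the other 5, which were Sycp1, Sycp2, Sycp3, Hormad1 and Tex101. For Sycp3 and Hormad1 the overlap came from Rfx2-/- replicate 2 alone. Its ratio of Ift74 to Sycp3, for example, was 2.25, against 1.94 to 2.59 in wild type. The ratio of Ift81 to Sycp2 was 0.275 to 0.449 in wild type and 0.322 to 0.421 in Rfx2-/-, and that of Ift74 to Sycp1 was 0.799 to 1.19 and 0.948 to 1.47. Of the 12 round spermatid markers, 10 gave no overlap for Ift74 and 9 for Ift81. The part of germ cell composition in the higher levels of Ift74 and Ift81 was not tested. Ift27 also stayed apart per spermatocyte marker (3.27 to 3.92 against 1.25 to 2.21) and per round spermatid marker (11.4 to 15.6 against 4.82 to 8.11), and was lower without overlap against 9 of 10 and 11 of 12 of the single markers. Per 1000 CPM of elongating spermatid markers it did not, with 1.05 to 1.92 in wild type and 0.958 to 1.46 in Rfx2-/-, and neither did Ift172, with 26.6 to 48.2 and 9.59 to 49.7. The part of cell composition in the lower values of Ift27 and Ift172 was not tested further.

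**Figure D5:**
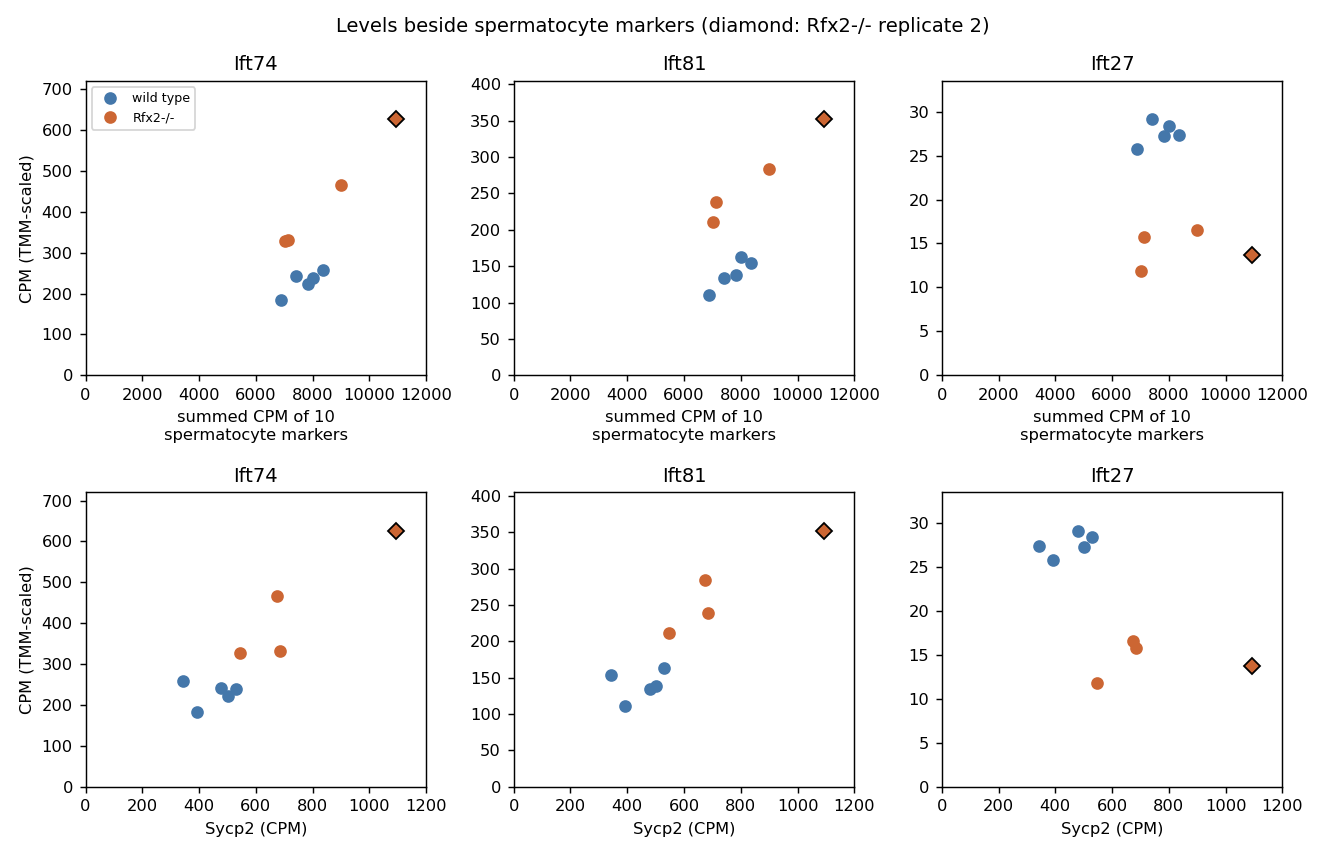
TMM-scaled CPM of Ift74, Ift81 and Ift27 (vertical axes, from 0) in each library against the summed CPM of 10 spermatocyte markers (upper row) and against Sycp2 alone (lower row, CPM). Points are libraries and the diamond is Rfx2-/- replicate 2. Against the sum the genotypes lie apart for Ift74 and Ift81, whereas against Sycp2 their ratios overlap (0.275 to 0.449 and 0.322 to 0.421 for Ift81), and Ift27 is lower in all knockout libraries in both rows.

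The tested gene with the highest correlation of log2 CPM over the 9 libraries was found for each member, as a description that includes the genotype difference and the state of replicate 2. For Ift27 it was 4931440F15Rik (r 0.995), which fell by 2.25 on the log2 scale (edgeR adjusted p 1.17e-05). For Ift81 it was Klk1b7-ps (r 0.987), a kallikrein pseudogene whose reads may come from its relatives, with a log2 fold change of 1.04. The others were D430042O09Rik for Ift172 (r 0.998), Vti1b for Ift20 (r 0.992), Sav1 for Ift80 (r 0.985), Btbd7 for Ift88 (r 0.982), Tmem209 for Ift52 (r 0.968), Gm15130 for Ift57 (r 0.968) and Slc25a28 for Ift46 (r 0.950). The gene closest to Ift74 (ENSMUSG00000021020, r 0.989) has no name in the annotation used.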

How the data were processed

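RNA-seq of decapsulated mouse testes was available as 1 table of raw counts per gene, deposited by the authors, with 5 wild type and 4 Rfx2-/- mice at postnatal day 29 to 30. Per their methods, the authors made TruSeq libraries, sequenced single reads, mapped them with STAR to GRCm38, discarded reads with several positions and counted over merged exons of protein coding isoforms, leaving out reads over exons of different genes; the submitters' processing notes name STAR 2.4 and featureCounts 1.4.6. Close copies lose reads by this route, and whether strand was used is not given in the sources used here. Every row named a gene.

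Here edgeR 4.0.16 in R 4.3.3 (quasi-likelihood F test, robust, TMM factors, filterByExpr, genotype as the single factor) was fitted to all genes, with Benjamini-Hochberg adjustment over the 15613 tested. Calls used an adjusted p at or under 0.05, or at or under 0.01 with a change over 2-fold. DESeq2 1.42.0, limma 3.58.1, other scalings, no filter, removal of a length trend, thinning of the deepest library and omission of each library were alternatives. Counts of library pairs within a genotype differed by a chi-square of at least 4.45 per gene, where sampling alone gives about 1, so each was kept as a replicate. A count of 0 allows up to 3 counts, or 0.0995 to 0.234 CPM; such limits cover counting error only.

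Names and exon lengths came from GENCODE M21 (96.6% of gene IDs matched) and promoters from RefSeq. The list of genes with an RFX2 promoter peak was taken from the study for membership only. The members, lists and named genes (all members, Rfx2, every called gene of the other transport lists and the gene most correlated with each member) were chosen with earlier results of these data known. Levels per marker sum, per single marker and without Rfx2-/- replicate 2 were added after the data were seen. Replicates were numbered by accession, so their numbers say nothing about pairs.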

Additional observations from a re-analysis of the deposited data

How the results depend on the processing

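Of 160 fitted changes (10 genes under 16 alternatives, 9 of which leave out 1 library), 154 kept their direction and their side of an adjusted p of 0.05, 3 newly passed it and 3 turned in direction. Ift74, Ift81 and Ift27 were called in all 16. The count of members called lower was 2 with DESeq2 and 2 with the length trend removed, through Ift52 (-0.36 and -0.40). Of all genes, 7.53% and 9.58% were called lower in these. Over the omitted libraries the count ranged from 1 to 2. It was 2 without Rfx2-/- replicate 2, through Ift172 (-0.46), where 9.77% of all genes were called lower. By the strict rule, 2 members were higher with total counts and 1 was lower (Ift27, -1.06) with the length trend removed, and 0 to 2 were higher over the omitted libraries, with 2 without Rfx2-/- replicate 1 or 3 and 1 without wild type replicate 4. With total counts 1 member, in place of 3, was lower without overlap. Shares of all genes by the strict rule and without overlap are given for the main analysis only. Total counts turned Ift88 to 0.024. Over the omitted libraries Ift46 ranged from -0.017 to 0.25 and Ift20 from -0.050 to 0.41, both turning below 0 without Rfx2-/- replicate 2. None of these 3 was called in any analysis. Over all genes, 544 were called higher at an adjusted p of 0.05 by edgeR, 910 by DESeq2, 1178 with total counts and 276 to 1393 over the omitted libraries (1393 without Rfx2-/- replicate 1). With 1 free base in the X-box, 5 of 8 windows had at most 3 mismatches, in place of 2. The cause of these shifts was not tested. No paired analysis was made, because the labels do not state which animals shared a litter. The study used littermates of the same age where it could, so a litter effect was not modelled. Depth did not limit the members, whose lowest count in any library was 174 (Ift27).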
